A study of Mus musculus with 5 samples.

Results

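The genes described here are 9 grouped as feedback genes of cytokine signalling, several of them targets of the transcription factor STAT5. Cish, Socs1, Socs2, Socs3, Socs4 and Socs5 encode inhibitors of cytokine signalling. Pim1 and Pim2 encode survival kinases, and Osm encodes the cytokine oncostatin M. Whether each of the 9 genes responds to STAT5 was not tested. The genes were chosen by name, as every non-control probe whose RefSeq transcript belongs to 1 of the 9 symbols. This gave 11 of the 55681 probes on the array and 9 of the 20022 genes with a named probe. Socs2 had 3 probes and every other gene had 1. All 9 genes were well above background on at least 2 of the 5 arrays and entered the test, 7 of them on all 5 arrays.

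A cytokine such as interleukin-15 (IL-15) binds receptor chains that activate JAK kinases, which phosphorylate STAT proteins, and STAT5 then enters the nucleus and turns on its target genes. Several of those targets act back on the pathway. The proteins of the SOCS family, CIS (from Cish) among them, carry an SH2 domain that docks on phosphorylated receptors or kinases and a SOCS box that recruits a ubiquitin ligase, so that signalling is damped. PIM kinases are active as soon as they are made, so their amount is set mainly by synthesis and turnover, and they promote growth and survival. In lymphocytes, Cish and Socs2 transcripts are commonly read as a sign of recent STAT5 activity.

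The samples were natural killer T (NKT) cells, T cells that recognise lipids on CD1d, sorted from the thymus as CD3e+ cells that bound a CD1d tetramer. There were 3 wild-type samples and 2 from mice of genotype IL15-/- (IL15ko), all with the C57BL/6 genetic background. A sample pooled 10 thymi, was enriched for T cells on magnetic columns before the sort, and was hybridised to 1 Agilent 1-colour array. The cells were freshly isolated. The age of the mice is not given in the sources used here. The IL15-/- genotype is that of the whole mouse, so the cells had also developed without the cytokine.

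Between 44.6% and 49.6% of probes were well above background on the wild-type arrays, 45.2% on IL15ko 1 and 33.9% on IL15ko 2, the dimmest array. Wild-type 1 and 2 lay closer to each other (robust SD of their log2 difference over the tested genes 0.17) than either did to wild-type 3 (0.34 and 0.38) or the IL15ko arrays to one another (0.38). All 13 NKT markers were well above background on every array. No array detected Rag1, Rag2, Ptcra, Cd8a or Cd8b1 of immature thymocytes, Cd79a, Ms4a1 or Pax5 of B cells, or Lyz2, Itgax, Flt3 or Adgre1 of myeloid and dendritic cells above background. Other markers of these types were detected. Dntt of immature thymocytes was well above background on all 5 arrays, with overlapping groups. Cd79b and Blk of B cells were well above background on all 5 arrays and higher in both IL15ko samples than in every wild-type sample, with log2 differences of 0.92 ± 0.24 and 1.11 ± 0.42 that did not pass the test (limma adjusted p = 0.0881 and 0.172). Of 6 NK-cell markers, some of which NKT cells also express, 5 were well above background on at least 1 array and Ncr1 on none. The summed signal of these 6 markers, in multiples of each array's 75th percentile, was between 14.6 and 15.9 in wild-type and between 2.77 and 3.63 in IL15ko samples, and it thus moved in the same direction as Cish and Socs2 below. The corresponding sums were 86.9 to 94.2 and 80.8 to 83.3 for the NKT markers, and 4.19 to 5.98 and 4.56 to 10.6 for 10 myeloid and dendritic markers. The latter sum holds markers that lay on both sides. The granulocyte gene S100a9 was well above background on all 3 wild-type arrays and neither IL15ko array and was at least 3.32-fold lower, a bound defined with the Socs2 probes below. Csf1r, the macrophage growth factor receptor gene, had a log2 difference of -2.29 ± 0.46 with no overlap (limma adjusted p = 0.0508), and Itgam one of 0.70 ± 0.40 with overlapping groups (limma adjusted p = 0.312). For 6 thymic epithelial and stromal markers they were 0.020 to 0.050 and 0 to 0.013, with Krt8, Foxn1 and Pdgfra never above background. The part of these other cell types in the differences of Cish and Socs2 was not tested.

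The comparison of IL15ko with wild-type cells asks which of these genes differ when IL-15 is missing. Cish and Socs2 fell strongly in IL15ko NKT cells, and the other 7 genes did not pass the test. Thus limma called 2 of the 9 genes lower at a Benjamini-Hochberg adjusted p under 0.05, where 3.58% of all 11997 genes tested were called lower and 3.75% higher. An unadjusted p under 0.05 was found for 4 of the 9 genes and for 27.5% of all genes. The median log2 difference (IL15ko minus wild-type) was -0.64 over the 9 genes and 0.01 over all genes tested, and 7 of the 9 differences were below 0, against 48.6% of all genes. The groups did not overlap in 6 of the 9 genes, with 5 lower and 1 higher in IL15ko, where 22.1% and 25.1% of all tested genes were so arranged. In these bulk samples, fewer cells of a type and less RNA per cell cannot be told apart.

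**Figure D1:**
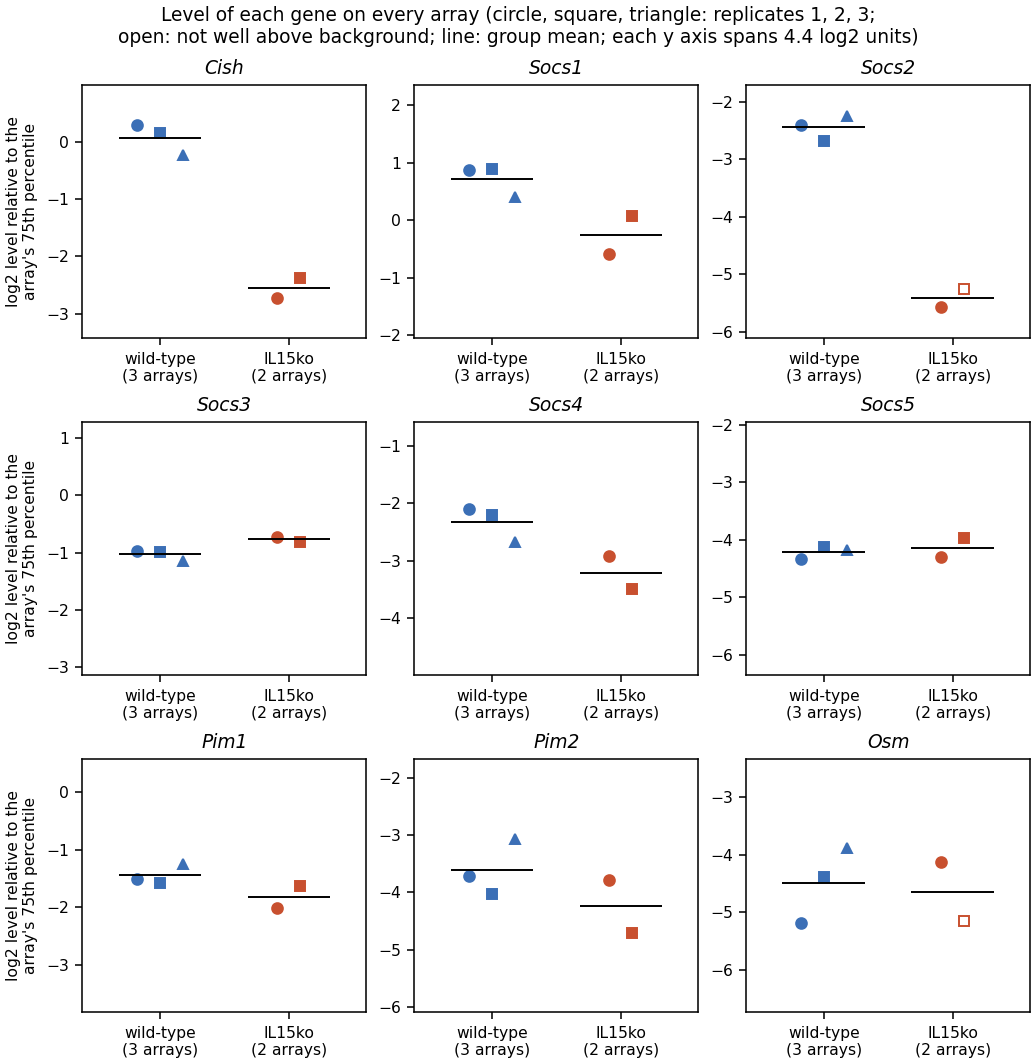
Level of each of the 9 genes on every array, as log2 signal relative to the array's 75th percentile, with 3 wild-type arrays (blue) and 2 IL15ko arrays (red); lines are group means and open symbols are levels not well above background. Cish and Socs2 have IL15ko levels far below all wild-type levels, with a mean of -2.55 against 0.07 for Cish, while the groups of Socs5, Pim2 and Osm overlap.

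Cish encodes CIS, the founding inhibitor of its family and a direct STAT5 target. Its level, as log2 of the signal relative to the array's 75th percentile (the unit of all levels below), was 0.28, 0.15 and -0.23 in wild-type 1, 2 and 3 and -2.72 and -2.37 in IL15ko 1 and 2. All 3 wild-type arrays were thus high and both IL15ko arrays low, with no overlap. It fell by 2.62 ± 0.21 (SE) on the log2 scale and was 6.13-fold lower (95% confidence interval 4.23 to 8.90, limma adjusted p = 0.00881). Its log2 difference ranked as number 48 from the lowest of the 11997 genes. The gene was still measured in IL15ko cells, since the probe was well above background on both arrays, with processed signals of 205 and 84.9 against 982 to 1672 in wild-type cells.

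Socs2 encodes an inhibitor best known for limiting growth hormone signalling, and is also a STAT5 target. The brightest of its 3 probes was printed as 10 spots on each array, which shows the spot noise directly. Its level was -2.40, -2.67 and -2.25 in wild-type 1, 2 and 3 and -5.56 and -5.25 in IL15ko 1 and 2. The groups were separated by far more than either varied. It fell by 2.97 ± 0.19 (SE) on the log2 scale and was 7.82-fold lower (95% confidence interval 5.63 to 10.9, limma adjusted p = 0.0059), ranking as number 33 from the lowest.

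The repeated spots show where this value becomes uncertain. In wild-type 1, 2 and 3 the SD between spots was 0.08, 0.09 and 0.05 on the log2 scale, with 8 spots kept in wild-type 2 and 10 on each other array. In IL15ko 1 it was 0.28, with signals from 19.1 to 37.2, and all 10 spots were well above background. In IL15ko 2 it was 0.51, with signals from 5.44 to 21.1, and 1 of the 10 spots was well above background. The mean level on IL15ko 2 was below -4.92, the level of the dimmest probe well above background on that array, so the fold of Socs2 is less certain than its direction.

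**Figure D2:**
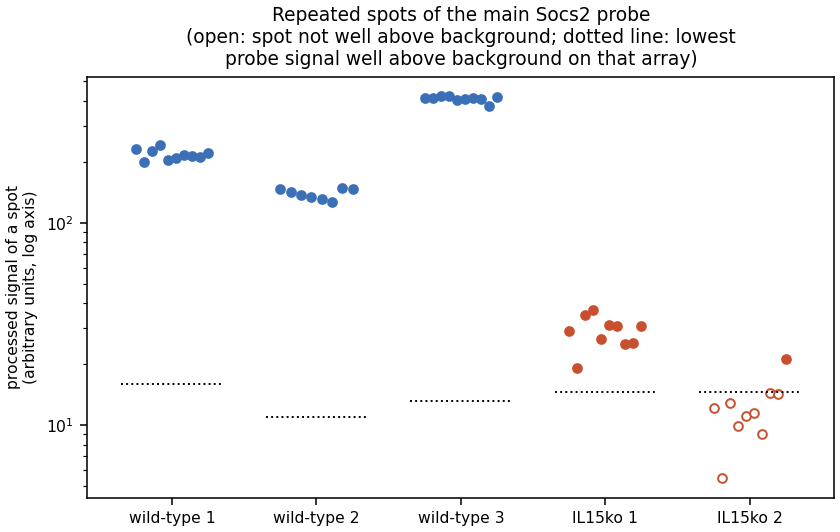
Processed signal (arbitrary units, log axis) of every spot of the brightest Socs2 probe on the 5 arrays, without outlier spots; open symbols are spots not well above background and dotted lines the lowest probe signal well above background on that array. Spots of IL15ko 1 lie between 19.1 and 37.2, below all wild-type spots, and 1 of the 10 spots of IL15ko 2 is filled.

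The other Socs2 probes gave the same order. In a fit of every named probe, the second had levels of -3.35, -3.54 and -3.15 in wild-type 1, 2 and 3 and -6.05 and -6.53 in IL15ko 1 and 2, and it fell by 2.94 ± 0.21 (limma adjusted p = 0.00884). It too was not well above background on IL15ko 2. The third had levels of -3.50, -3.37 and -3.40 in wild-type 1, 2 and 3 and was not well above background on either IL15ko array, so it passed the filter on dim probes through the wild-type arrays alone, and only a bound of its fold is given. The bound sets the wild-type mean against the mean over the IL15ko arrays, taking on each the probe's own signal or the dimmest signal well above background, whichever was higher. By that measure it was at least 4.68-fold lower.

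Both calls depended on wild-type 1. Without it the limma adjusted p was 0.0602 for Cish and 0.0536 for Socs2, at log2 differences of -2.51 and -2.94, while both genes were called with any other single array left out. When the mean of wild-type 1 and 2 was taken as a single sample, the adjusted p-values were 0.0481 and 0.0431. Under normexp correction of the background with 50 added to each signal, the differences were -2.05 (adjusted p = 0.0727) and -1.22 (adjusted p = 0.21). Without the filter on dim probes the adjusted p-values were 0.0812 and 0.0692. Calls over all genes fell too, from 879 to 9 without wild-type 1, to 1 under normexp correction and to 3 without the filter.

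The remaining SOCS genes did not pass the test, and they did not all lie on 1 side. Socs1, whose product blocks the JAK kinases themselves and is induced by many cytokines, had levels of 0.88, 0.89 and 0.41 in wild-type 1, 2 and 3 and -0.58 and 0.08 in IL15ko 1 and 2. Both IL15ko arrays lay below every wild-type array. The log2 difference was -0.98 ± 0.27 (SE), a ratio of 1.97-fold (95% confidence interval 1.23 to 3.15), with an unadjusted p of 0.0137 and an adjusted p of 0.0952 in limma's fit. It was called under 1 of 17 alternatives, a trended and robust variance prior (adjusted p = 0.0431). Its difference was -0.64 without IL15ko 1 and -1.31 without IL15ko 2.

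Socs4, a family member with a long N-terminal region that has been linked to the epidermal growth factor receptor, had levels of -2.09, -2.20 and -2.67 in wild-type 1, 2 and 3 and -2.92 and -3.49 in IL15ko 1 and 2. The groups again did not overlap, though wild-type 3 lay only a little above IL15ko 1. The log2 difference was -0.88 ± 0.26, with an unadjusted p of 0.0181 and an adjusted p of 0.108 by limma. It was -1.16 without IL15ko 1, -0.60 without IL15ko 2 and -0.34 under normexp correction. In this gene IL15ko 2 was the lower of its pair, whereas in Socs1 it was the higher.

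Socs3, which restrains the IL-6 family receptor chain gp130 and is best known as a STAT3 target, lay on the other side. Its levels were -0.97, -0.99 and -1.14 in wild-type 1, 2 and 3 and -0.72 and -0.82 in IL15ko 1 and 2, so both IL15ko arrays lay just above the wild-type ones. The log2 difference was 0.26 ± 0.13 (95% confidence interval -0.07 to 0.59, limma adjusted p = 0.259). It had the smallest spread of the set, with an SD of 0.09 between the wild-type and 0.07 between the IL15ko arrays. A fall of the size seen for Cish lies outside its interval.

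Socs5 is another family member with a long N-terminal region. Its levels were -4.34, -4.12 and -4.18 in wild-type 1, 2 and 3 and -4.30 and -3.97 in IL15ko 1 and 2. The groups overlapped, and the log2 difference was 0.08 ± 0.16 (95% confidence interval -0.33 to 0.48, limma adjusted p = 0.784).

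Promoter sequence of Cish, Socs1 and Socs3 is shown because Cish fell, Socs1 lay lower without passing the test and Socs3 lay slightly higher. In the RefSeq promoter table of build GRCm38.p6, 6 of the 9 genes have a window, 7 windows in all. Socs2, Socs5 and Osm have none, so their promoters were not searched. The windows of Socs4, Pim1 and Pim2 were searched but are not printed. The 250 bases upstream of the annotated start are printed 5′ to 3′ in lower case, with any match to TTCNNNGAA, the palindrome bound by STAT5 and other STAT proteins, in capitals.
Cish (chr9:107296409-107296658, plus strand): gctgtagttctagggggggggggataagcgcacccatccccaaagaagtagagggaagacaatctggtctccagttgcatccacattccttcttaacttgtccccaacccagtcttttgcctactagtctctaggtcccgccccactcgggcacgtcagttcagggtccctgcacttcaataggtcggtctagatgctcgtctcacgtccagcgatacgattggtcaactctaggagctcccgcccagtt
Socs1 (chr16:10785537-10785786, minus strand): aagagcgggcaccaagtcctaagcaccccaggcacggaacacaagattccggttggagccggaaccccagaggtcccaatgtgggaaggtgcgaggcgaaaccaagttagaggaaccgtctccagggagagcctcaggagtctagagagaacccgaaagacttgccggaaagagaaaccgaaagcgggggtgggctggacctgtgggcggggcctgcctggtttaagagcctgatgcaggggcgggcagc
Socs3 (chr11:117969367-117969616, minus strand): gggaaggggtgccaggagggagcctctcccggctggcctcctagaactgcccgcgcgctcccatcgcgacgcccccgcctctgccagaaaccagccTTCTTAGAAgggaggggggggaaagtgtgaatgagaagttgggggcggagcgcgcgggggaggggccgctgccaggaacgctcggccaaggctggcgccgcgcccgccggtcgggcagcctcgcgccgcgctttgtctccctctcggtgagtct
The motif reads the same on both strands. Socs3 holds the only match among the 7 windows, TTCTTAGAA, which runs from 154 to 146 bases upstream of the start. Of 32851 windows of this length in the table, 7.02% hold at least 1 match. A match is a description of letters in 1 window and not of a bound site, and other starts and enhancers of these genes were not searched.

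The PIM kinase genes did not pass the test either. Pim1 had levels of -1.51, -1.59 and -1.25 in wild-type 1, 2 and 3 and -2.01 and -1.63 in IL15ko 1 and 2. The groups did not overlap, but IL15ko 2 lay only just below wild-type 2. The log2 difference was -0.37 ± 0.19 (95% confidence interval -0.84 to 0.10, limma adjusted p = 0.265). It was -0.18 without IL15ko 1 and -0.56 without IL15ko 2. The lower end of the interval is a smaller fall than that of Cish.

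Pim2, which like Pim1 sustains cell growth and survival, had levels of -3.72, -4.03 and -3.07 in wild-type 1, 2 and 3 and -3.79 and -4.70 in IL15ko 1 and 2. IL15ko 1 lay within the wild-type range and IL15ko 2 below it. The log2 difference was -0.64 ± 0.39 (95% confidence interval -1.63 to 0.36, limma adjusted p = 0.352). It was -1.09 without IL15ko 1, -0.18 without IL15ko 2, -0.37 without wild-type 3 and -0.08 under normexp correction. Its size thus rests on IL15ko 2, on wild-type 3 and on how background was handled. The processed signal of Pim2 on IL15ko 2 was 16.9, close to 14.5, the lowest signal well above background on that array.

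Osm, a cytokine of the IL-6 family that has been described as a STAT5 target, was the most variable gene of the set. Its levels were -5.19, -4.38 and -3.88 in wild-type 1, 2 and 3 and -4.13 and -5.16 in IL15ko 1 and 2, where it was not well above background on IL15ko 2. Both IL15ko levels lay within the wild-type range. The log2 difference was -0.16 ± 0.48 (95% confidence interval -1.38 to 1.07, limma adjusted p = 0.854), and it changed sign when IL15ko 2 was left out (0.36) or when wild-type 3 was (0.145). An interval this wide leaves both a 2-fold fall and a 2-fold rise of Osm within it.

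**Figure D3:**
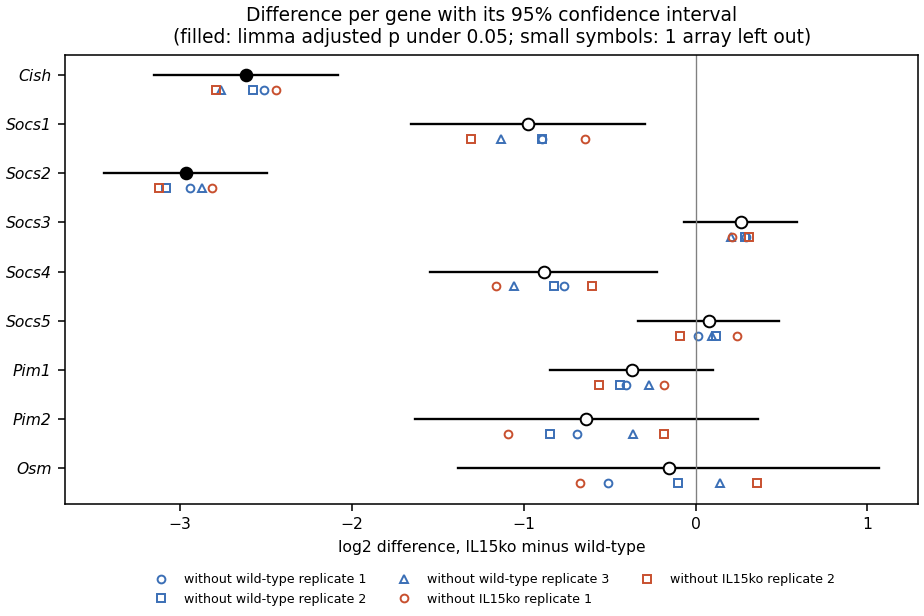
Log2 difference (IL15ko minus wild-type) of each gene with its 95% confidence interval, filled where limma's adjusted p was under 0.05, and below it the difference with 1 array left out. Leaving out an array moved Cish only between -2.79 and -2.44 and Socs2 between -3.12 and -2.81, whereas Osm ran from -0.67 to 0.36.

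The wild-type arrays themselves were not uniform for these genes. Wild-type 3 had the highest level of all 5 arrays in 4 genes, Socs2, Pim1, Pim2 and Osm, and the lowest wild-type level in Cish, Socs1, Socs3 and Socs4. The SD between wild-type arrays ran from 0.09 for Socs3 to 0.66 for Osm. For Cish and Socs2 it was 0.26 and 0.21, far below the difference between groups.

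Ratios between genes within an array do not depend on how arrays were scaled to each other. The log2 ratio of Cish to Pim1 was 1.80, 1.74 and 1.02 in wild-type 1, 2 and 3 and -0.71 and -0.74 in IL15ko 1 and 2. That of Socs2 to Pim1 was -0.88, -1.08 and -1.01 in wild-type 1, 2 and 3 and -3.55 and -3.62 in IL15ko 1 and 2. Only the change of such a ratio can be read, since signals of different probes are not comparable. Cish and Socs2 were set against Pim1 with their fall known, so the direction of these changes is no separate evidence. Socs2 was not well above background on IL15ko 2, and its ratios there are uncertain. The ratio of Cish to Socs2 differed by 0.35 between the groups. Its wild-type values ran from 2.03 to 2.82, and it was 2.84 in IL15ko 1 and 2.88 in IL15ko 2, just above them.

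The other members of both families did not pass the test. Socs7 differed by 0.10 ± 0.20 on the log2 scale (limma adjusted p = 0.772), Pim3 by 0.14 ± 0.32 and Socs6 by 0.54 ± 0.39, and 0 of the 3 had an unadjusted p under 0.05. Of 6 genes of the ubiquitin ligases that SOCS boxes recruit, limma called 0, and the median log2 difference was 0.02. The scaffold gene Cul5 was the 1 of them with an unadjusted p under 0.05, at 0.35 ± 0.12 (adjusted p = 0.147).

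Upstream of the 9 genes, some receptor genes were lower. Of 15 genes of cytokines and receptors that signal through the common gamma chain or STAT5, 10 were tested, 2 were called lower and 1 higher, with a median of -0.27. Il4ra, a chain of the IL-4 receptor, fell by 1.59 ± 0.23 (adjusted p = 0.0233) and Il21r, the IL-21 receptor, fell by 0.81 ± 0.14 (adjusted p = 0.0375), whereas Il21 rose 2.22-fold (adjusted p = 0.0488). Each of these 3 calls was lost with any 1 of the 5 arrays left out. Il2rb, the signalling chain of the IL-15 receptor, differed by -1.56 ± 0.33 (adjusted p = 0.0542). Of 11 JAK and STAT genes 1 was called, Stat4, which responds to IL-12 and fell by 2.27 ± 0.30 (adjusted p = 0.0203, but 0.0889 without wild-type 1 and 0.0752 without wild-type 2). The kinase gene Jak3 was higher without overlap, at 0.54 ± 0.12 (limma adjusted p = 0.0626). Tyk2 was lower without overlap, at -0.93 ± 0.37 (limma adjusted p = 0.186). With the filter at all 5 arrays, and with a trended and robust variance prior, 1 JAK or STAT gene was called higher. Stat5a and Stat5b, which drive Cish, differed by 0.31 ± 0.15 and 0.17 ± 0.15 (adjusted p = 0.261 and 0.482).

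Inhibitors that restrain the same pathway by other means were mostly not called. Of 14 tested, 1 had an adjusted p under 0.05, the phosphatase gene Dusp3. It was well above background on all 3 wild-type arrays and neither IL15ko array, so it entered the test through the wild-type arrays alone and its p is not given. It was at least 1.33-fold lower, and the call was lost with any 1 of the 5 arrays left out and with quantile scaling. The Dusp3 call was also lost with normexp correction, without the filter on dim probes, and with a trended and robust variance prior. Averaging wild-type 1 and 2, fitting every probe by itself, the authors' value table and a block for the replicate number removed it as well. The phosphatase genes Ptpn6 and Ptpn2, which act on JAK kinases and STAT proteins, differed by 0.02 ± 0.20 and -0.30 ± 0.15 (adjusted p = 0.967 and 0.265). The ubiquitin ligase gene Cbl differed by -0.73 ± 0.21 (adjusted p = 0.107). The median of the 14 was -0.24.

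Of 22 tested genes linked to STAT5 as targets, 9 were called lower, with a median of -0.71. Of these, Spry2, an inhibitor of growth factor signalling, was well above background on all 3 wild-type arrays and neither IL15ko array and so entered the test through the wild-type arrays alone (at least 1.87-fold lower). With the filter at all 5 arrays 20 genes of the list were tested, and 10 were called lower and 1 higher. The list was drawn up with earlier results of these samples known. The called genes include Gzmb, which encodes granzyme B (44.8-fold lower, adjusted p = 0.00641, with a log2 difference of -4.86 without IL15ko 1 and -6.12 without IL15ko 2), Tbx21, which encodes T-bet (3.40-fold), the MAP kinase phosphatase gene Dusp6 (2.61-fold) and the survival gene Bcl2 (4.34-fold). Leaving out wild-type 1 removed all 9 calls, and between 2 and 5 genes of the list were called with another array left out, with wild-type 2 giving the fewest. The cell-cycle targets Myc and Ccnd2 differed by 0.05 ± 0.15 and -0.62 ± 0.17 and did not pass (adjusted p = 0.857 and 0.0922). Ccnd3, another cell-cycle target, was among the 9 called lower, at -0.82 ± 0.16 (limma adjusted p = 0.0469). Its call was lost with any 1 wild-type array left out.

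Neither the receptor genes of Osm nor the listed substrates of PIM kinases were called in large part. Osmr, the specific receptor chain, and Lifr were below the detection threshold on every array, and Il6st, which encodes the shared chain gp130, differed by 0.18 ± 0.17 (adjusted p = 0.52). Of 5 tested genes of that family 1 was called, Il6ra, the IL-6 binding chain, which rose 2.53-fold (adjusted p = 0.0164, but 0.0876 without wild-type 1 and 0.0744 without wild-type 2). Among 10 tested substrates and neighbours of PIM kinases 1 was called, Foxo1, a transcription factor gene that rose 1.62-fold (adjusted p = 0.0476) and was not called higher with any 1 array left out or when the arrays were scaled by quantiles, by the median or by the percentile of all probes. The Foxo1 call was also lost with normexp correction, without the filter on dim probes, and with the mean of a gene's probes. Averaging wild-type 1 and 2, fitting every probe by itself, the authors' value table and a block for the replicate number removed it as well. The cell-cycle inhibitor gene Cdkn1b differed by -0.46 ± 0.14 (adjusted p = 0.12), and Bad, a pro-apoptotic PIM substrate, by 0.22 ± 0.16 (adjusted p = 0.42).

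**Figure D4:**
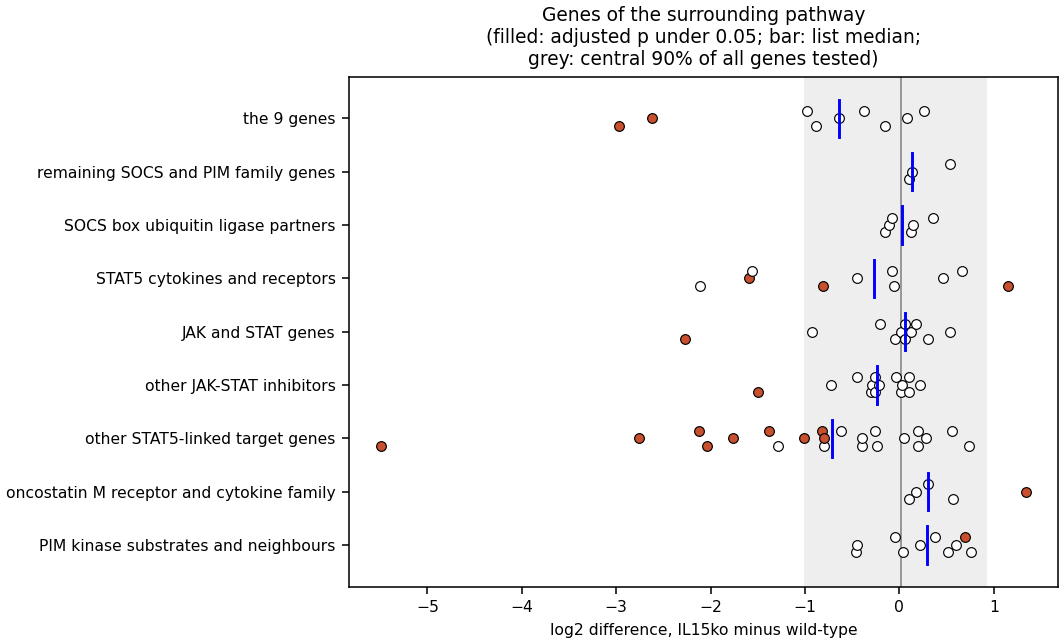
Log2 difference (IL15ko minus wild-type) of every tested gene of the pathway lists, filled where limma's adjusted p was under 0.05, with the median of each list as a bar and the central 90% of all tested genes in grey. Cish and Socs2 lie far outside the grey range, as do several of the other STAT5-linked targets, while the remaining SOCS and PIM genes lie within it.

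Genes with the most similar profile were sought among 9753 other genes well above background on all 5 arrays, by the root mean square difference of mean-centred log2 levels. Nearest to Cish were Apol9b (0.17), Ifngr1, an interferon-gamma receptor chain (0.22), and Fcer1g, an immune receptor adaptor (0.22), with log2 differences between groups of -2.51, -2.19 and -2.49. Nearest to Socs1 were Clnk (0.05), Resf1 (0.11) and Nlrp1a (0.12), and nearest to Socs4 were Ctdspl2, Khdc3 and Polr3f (0.08 each). With 5 arrays such likeness is a description only.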

How the data were processed

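Per the file headers, Agilent Feature Extraction 10.7.1.1 made the deposited scanner files. They give spot intensities on a linear scale, and the processed signal has had background and spatial trend removed by that software. The submitters' processing notes also name limma. The authors' deposited value table, used as an alternative, holds linear intensities that differ between arrays in their medians. For bright spots they equal the spot median less the local background median, shifted by 1 fixed amount per array.

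Control and outlier spots were left out, and log2 values of a probe's spots averaged. The 75th percentile of each array, over 18519 probes detected on every array, was subtracted. Accessions were matched without versions to RefSeq (GRCm38.p6), naming 26425 probes. The brightest probe stood for a gene. The 11997 genes detected (well above background) on 2 or more arrays were compared by lmFit and eBayes in limma 3.58.1 (R 4.3.3), tested on simulated data, with Benjamini-Hochberg adjustment. Errors are moderated standard errors. The number of arrays limits the precision.

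The labels do not say that replicates came from separate pools of mice, so the p-values reflect the spread between samples that may be technical replicates. With 3 arrays against 2, an exact permutation test cannot go below p = 0.1. The 5 arrays shared 1 slide and 1 scan time, so the slide was not tried as a block. Genes and lists were chosen with earlier results of these data known. Named were the 9 genes and the 3 nearest profiles of up to 3 genes. Of a list, up to 4 genes among those of smallest p were named, with any gene that a count needed. Not every such gene was named above. Among those passed over, Cdc25a of the PIM list differed by 0.61 ± 0.17 (limma adjusted p = 0.101). Sh2b3 of the inhibitor list differed by -0.45 ± 0.14 (limma adjusted p = 0.123). Stat5b, Ptpn6, Ptpn2, Myc, Ccnd2, Ccnd3 and Bad were named for their role, and the single cell type markers given with values, after their values were seen. The result of 1 marker gene, and the summed level of its list, are not reported here.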

Additional observations from a re-analysis of the deposited data

How the results depend on the processing

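Of the 9 genes, 2 were called. Over 17 alternatives this count was 0 with normexp background correction (on spot and background medians, offset 50), 0 without the filter on dim probes, 1 with the filter at all 5 arrays, which leaves Socs2 and Osm untested, 3 with a trended and robust variance prior, and 0 to 2 with 1 array left out. A lone IL15ko array is assumed to vary like the wild-type arrays. The log2 difference stayed below 0 for Cish, Socs1, Socs2, Socs4, Pim1 and Pim2 and above 0 for Socs3 in each alternative that gave a value. With 1 array left out, Socs5 ran from -0.089 to 0.24, below 0 only without IL15ko 2, and Osm from -0.67 to 0.36. Osm was 0.31 with normexp, 0.145 with the replicate block or without wild-type 3, and 0.36 without IL15ko 2. The cause was not tested. Over all genes 879 were called, against 1 with normexp, 3 without the filter, 1515 with the trended and robust prior, 101 with wild-type 1 and 2 averaged, and 9 to 784 with 1 array left out. Replicate numbers are not said to mark shared animals. Deviations of same-numbered arrays had correlations of -0.13 and 0.21. The deviations of 2 IL15ko arrays from their mean mirror each other, so these are not separate checks and cannot decide the pairing. With the replicate number as a block 379 genes were called, Cish and Socs2 among them (adjusted p = 0.0373 each). Signal over background limits Socs2 and Osm on IL15ko 2, and Pim2 lay close to the detection threshold there.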
